A study of Caenorhabditis elegans with 6 samples.

Results

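The genes described here are 10 genes of the intermediate filament cytoskeleton of Caenorhabditis elegans, found by symbol in the WBcel235 annotation among the 46940 features of a count table. They are ifa-1, ifa-3, ifa-4, ifb-1, ifb-2, ifc-1, ifc-2, ifd-1 and ifd-2, which encode filament proteins, and ifo-1, which encodes a protein that organizes intestinal filaments. They were listed by gene family. All 10 passed edgeR's filter on low counts.

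The protein chains of intermediate filaments pair through a coiled-coil rod and assemble into rope-like filaments that give epithelia mechanical strength. In the worm epidermis, A-type proteins pair with IFB-1 and run through fibrous organelles, the hemidesmosome-like attachments that carry the pull of body-wall muscle to the cuticle. In the intestine a different set, with IFB-2 as a core component, forms the endotube, a dense sheath beneath the microvilli that lines the gut lumen.

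RNA was profiled from whole untreated animals of the wild-type N2 strain, kept at 20 °C, at 2 ages. Samples came from day 10 animals (3 libraries) and from L4 larvae (3 libraries), L4 being the final larval stage, which ends with the moult to adulthood. There were no young adults, so changes at the passage to adulthood and changes with adult age cannot be told apart. Whether the 3 libraries of each age were grown as independent cultures is not stated, and the p-values reflect only how far these libraries spread, which may be technical variation.

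The day 10 libraries held 23257607 to 25616846 counts and the L4 libraries 19576201 to 23972794. Most genes differed between the ages: of 15956 genes tested with edgeR (quasi-likelihood fit), 85.4% had a Benjamini-Hochberg adjusted p under 0.05. The share called lower at day 10 was 45.0% and the share called higher 40.5%, with a median log2 fold change of -0.16 over all genes. Transcripts of listed oocyte and germ line markers took up far more of the day 10 libraries. The summed level of 10 such markers was 10888 to 15512 CPM (counts scaled to a common library total) at day 10 and 910.5 to 937.1 CPM in L4. The list is mostly of oocyte genes and holds no sperm genes. Its genes glp-1 and gld-1 rose less, with log2 fold changes of 2.21 and 1.68, against a list median of 4.59. In such whole-animal samples fewer cells of a type and less RNA per cell cannot be told apart, and the part of the germ line's RNA in the results below was not tested.

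Intermediate filament transcripts were lower at day 10 across the family. Of the 10 genes, 9 fell and none rose, against the 45.0% of all tested genes that were lower. All 10 log2 fold changes from edgeR were below 0, so none could be called higher at any threshold. DESeq2 and limma-voom called 9 lower and 0 higher, while of 15956 genes tested they called 6672 and 7256 lower. All 3 day 10 libraries lay below all 3 L4 libraries for the same 9 genes, which held for 46.2% of all tested genes. The median log2 fold change of the 10 genes was -2.28. A fall of at least 2-fold was seen for 7 of the 10, beside 37.2% of all tested genes. Falls of at least 4-fold were seen for 6 of the 10, beside 25.1% of all tested genes, and for 5 with DESeq2's size factors or without day 10 replicate 3. The summed FPKM of the 10 genes (fragments scaled to gene length and to the library total, which allows levels of different genes to be compared) was 87.7 to 89 at day 10 and 440.0 to 478.7 in L4. The sizes of the falls ranged from 1.5-fold for ifo-1 to 138.1-fold for ifc-1.

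**Figure D1:**
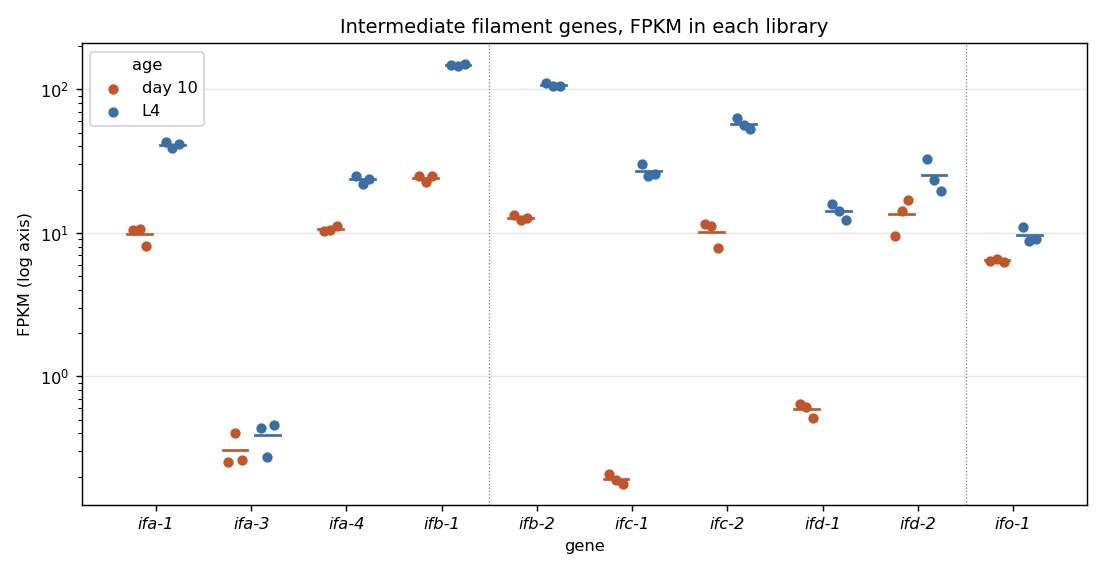
FPKM of the 10 genes in each library on a log axis, with day 10 libraries on the left of each pair and L4 libraries on the right. Points are libraries, short lines are means of 3, and dotted lines separate the A-type genes with ifb-1, the intestinal genes and ifo-1. The ages overlap for ifa-3 only, and ifc-1 shows the widest gap, at 0.179 to 0.209 FPKM at day 10 and 24.9 to 30.2 FPKM in L4.

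Among the epidermal and pharyngeal genes, ifb-1 was the most abundant at both ages. The gene ifb-1 (WBGene00002053, chromosome II, 5765618 to 5772084, plus strand, WBcel235) encodes the B-type partner with which the A-type proteins polymerize. It stood at 24.9, 22.5 and 24.8 FPKM in the day 10 libraries, against 147.6, 145.6 and 149.2 FPKM in the L4 libraries. The libraries lay close together within each age and the ages were far apart. Its level averaged 51.2 ± 2.8 CPM at day 10 and 316.6 ± 3.12 CPM in L4 (SD, n = 3 each), a log2 fold change of -2.63 ± 0.05 (SE; edgeR's adjusted p = 2.4e-09). Both annotated transcripts of ifb-1 are pooled in its count.

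The A-type genes fell by different amounts. The gene ifa-1 (WBGene00002050, X, 11271182 to 11275498, plus strand), which encodes a partner of IFB-1 in epidermis and pharynx, stood at 10.5, 10.7 and 8.14 FPKM at day 10, against 42.8, 38.8 and 41.6 FPKM in L4. The ages did not overlap, and day 10 replicate 3 was the lowest of the 6 libraries. Its log2 fold change was -2.08 ± 0.16 (SE; edgeR's adjusted p = 5.5e-07). The gene ifa-4 (WBGene00002052, X, 4912308 to 4915979, minus strand) encodes an A-type protein of the excretory canal, the tubular cell of osmoregulation, where it works with IFB-1 and IFC-2. It stood at 10.3, 10.4 and 11.2 FPKM at day 10, against 25, 22 and 23.9 FPKM in L4. Its day 10 libraries were almost level in CPM, with a coefficient of variation of 0.763%, and less so in FPKM, at 10.6 ± 0.475 (SD, n = 3). At 529 to 537 counts a library, counting error alone exceeds that coefficient, so it is not read as stability of the gene. It fell by 1.17 on the log2 scale, with an SE of 0.04 (edgeR's adjusted p = 7.5e-07). The last exon of ifa-4 meets that of K05B2.2 on the opposite strand, and the sources used here do not say whether counting used strand.

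The gene ifa-3 (WBGene00002051, X, 16267197 to 16270069, minus strand), a further A-type gene, was close to the limit of detection. It had 13, 20 and 12 counts at day 10 and 17, 13 and 18 counts in L4, which is 0.255 to 0.4 FPKM at day 10 and 0.273 to 0.455 FPKM in L4. The ages overlapped, and no difference was detectable at this depth (log2 fold change -0.34 ± 0.32 SE; edgeR's adjusted p = 0.41). Its neighbour mua-6, also known as ifa-2, lies 1510 bases away on the same strand with no protein-coding gene between them. MUA-6 is an A-type protein that holds muscle to the cuticle in growing larvae. It stood at 4.74, 2.95 and 2.82 FPKM at day 10, against 55.8, 57.5 and 57.5 FPKM in L4, and fell by 4.03 on the log2 scale with an SE of 0.26 (edgeR's adjusted p = 6.2e-07). These adjacent genes thus had very different levels in L4.

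Of the intestinal filament genes, ifb-2, ifc-1, ifc-2, ifd-1 and ifd-2 all fell, with a median log2 fold change of -3.09. The gene ifb-2 (WBGene00002054, II, 5750188 to 5754140, plus strand) encodes the core protein of the endotube and lies 11477 bases from ifb-1, with 3 protein-coding genes between them. It stood at 13.4, 12.2 and 12.7 FPKM at day 10, against 110.5, 106.1 and 105.7 FPKM in L4. Replicates were tight at both ages, at 23.2 ± 1.45 CPM at day 10 and 196.7 ± 3.63 CPM in L4 (SD, n = 3 each). The log2 fold change was -3.09 ± 0.05 (SE; edgeR's adjusted p = 1.6e-09).

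The gene ifc-1 (WBGene00002055, V, 2881393 to 2883753, plus strand), which encodes a further protein of the intestinal filaments, was nearly absent at day 10. It had 9, 8 and 7 counts in the day 10 libraries, against 992, 1002 and 854 counts in the L4 libraries. These are 0.209, 0.189 and 0.179 FPKM at day 10 and 30.2, 24.9 and 25.5 FPKM in L4. It fell by 7.11 on the log2 scale, with an SE of 0.30 set by its 24 counts at day 10 (edgeR's adjusted p = 2.5e-09), and only 1.92% of all tested genes had a lower log2 fold change. The gene ifd-1 (WBGene00002057, X, 8820703 to 8824448, minus strand), a protein gene of the same gut sheath, followed at 0.644, 0.616 and 0.516 FPKM at day 10, against 15.8, 14.2 and 12.3 FPKM in L4. Its log2 fold change was -4.58 ± 0.16 (SE; edgeR's adjusted p = 3.4e-08), and 8.72% of tested genes lay lower.

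The gene ifc-2 (WBGene00002056, X, 642156 to 654904, minus strand), also known as exc-2, serves both the intestine and the excretory canal and has 7 annotated transcripts. It stood at 11.6, 11.2 and 7.79 FPKM at day 10, against 62.6, 56.0 and 52.6 FPKM in L4. Day 10 replicate 3 was the lowest library, as for ifa-1. It fell by 2.49 on the log2 scale, with an SE of 0.22 (edgeR's adjusted p = 6.9e-06). The length behind its deposited FPKM is 3139 bases, while the exons of its transcripts merge to 5016 bases in the annotation. With the annotated length its mean would be 6.38 FPKM at day 10 and 35.7 FPKM in L4. This leaves its fold change as it is and lowers its level relative to the other genes.

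The gene ifd-2 (WBGene00002058, X, 813854 to 815929, minus strand), a paralogue of ifd-1 in the intestinal filaments, had the largest coefficient of variation at both ages among the 5 intestinal genes listed. It stood at 9.53, 14.2 and 17.0 FPKM at day 10, against 32.9, 23.5 and 19.6 FPKM in L4. The ages did not overlap, but the highest day 10 library and the lowest L4 library were close. In CPM it averaged 20.4 ± 5.06 at day 10 and 38.6 ± 10.1 in L4 (SD, n = 3 each). The log2 fold change was -0.92 ± 0.31 (SE; edgeR's adjusted p = 0.0079), and it was -0.71 to -1.09 when single libraries were left out.

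The gene ifo-1 (WBGene00018350, IV, 7320734 to 7326663, minus strand) is needed to keep intestinal filaments at the apical side of the gut cells. It stood at 6.39, 6.55 and 6.31 FPKM at day 10, against 10.9, 8.83 and 9.02 FPKM in L4. The ages did not overlap. It fell by 0.59 on the log2 scale, with an SE of 0.10 (edgeR's adjusted p = 0.00044), which was the smallest fall among the 9 genes that passed the test. In the authors' deposited table the adjusted p was 0.00517 for ifo-1, 0.0283 for ifd-2 and 0.96 for ifa-3, and it was at most 1.93e-12 for the other 7 genes.

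**Figure D2:**
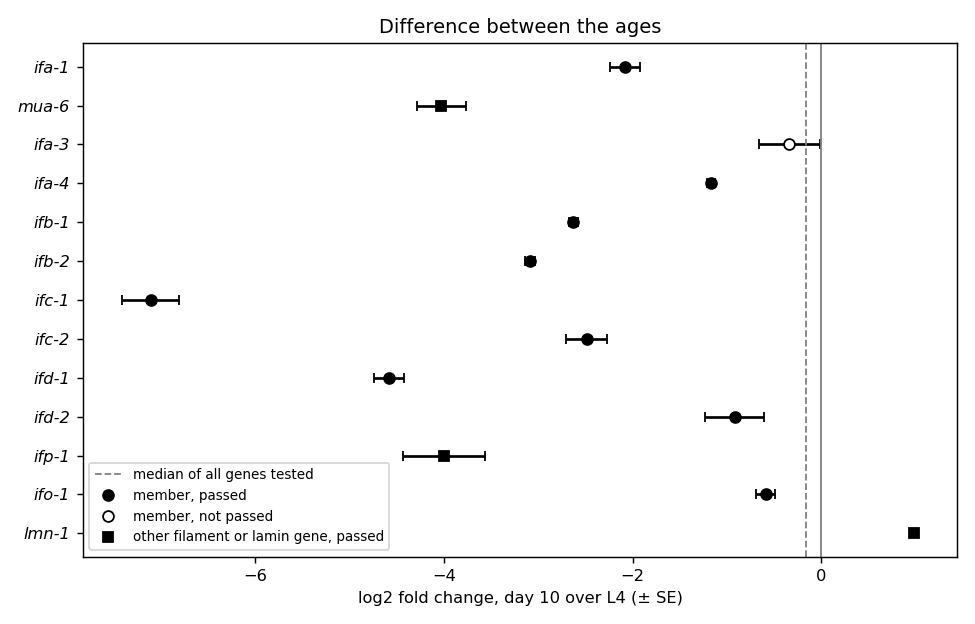
Log2 fold change of day 10 over L4 for the 10 genes (circles) and for mua-6, ifp-1 and lmn-1 (squares), with bars of 1 SE, the larger of the spread within the ages and the counting error. Filled symbols passed edgeR's test, the dashed line is the median of all genes tested (-0.16), and the values run from -7.11 for ifc-1 to 0.98 for lmn-1.

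The other filament genes divided by kind. The gene ifp-1, which encodes a further intestinal filament protein, stood at 0.426, 1.04 and 1.12 FPKM at day 10, against 13.8, 13.2 and 13.6 FPKM in L4. It was 16-fold lower at day 10 (SE of 0.43 on the log2 scale; edgeR's adjusted p = 2e-06). The nuclear lamin gene lmn-1, whose product lines the inside of the nuclear envelope in nearly all cells, rose. It stood at 185.9, 202.3 and 201.5 FPKM at day 10, against 101.3, 98.5 and 96.0 FPKM in L4 (log2 fold change 0.98 ± 0.04 SE; edgeR's adjusted p = 3.1e-07).

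The order of the levels changed between the ages. At day 10 ifb-1 led at a mean of 24.1 FPKM, followed by ifd-2 at 13.6, ifb-2 at 12.8, ifa-4 at 10.6, ifc-2 at 10.2, ifa-1 at 9.77 and ifo-1 at 6.42 FPKM, with ifd-1, ifa-3 and ifc-1 below 1 FPKM. At day 10 the range of ifd-2 overlapped those of ifb-2, ifa-4, ifc-2 and ifa-1, and the ranges of ifa-4, ifc-2 and ifa-1 overlapped in turn. In L4 ifb-1 led at 147.5 FPKM, followed by ifb-2 at 107.4, ifc-2 at 57.1, ifa-1 at 41.0, ifc-1 at 26.9, ifd-2 at 25.3, ifa-4 at 23.6, ifd-1 at 14.1, ifo-1 at 9.58 and ifa-3 at 0.388 FPKM. There the ranges of ifc-1, ifd-2 and ifa-4 all overlapped one another, that of ifc-1 with that of ifa-4 only narrowly. The gene ifc-1 ranked at place 10 of 10 in every day 10 library and at place 5 or 6 in the L4 libraries. The gene ifd-2 had no settled place, at 6, 2 and 2 in the day 10 libraries and at 5, 6 and 7 in the L4 libraries.

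The makeup of the intestinal set therefore differed between the ages as well as its level. Shares within a library do not depend on the scaling between libraries. The gene ifc-1 gave 0.592%, 0.492% and 0.469% of the summed FPKM of ifb-2, ifc-1, ifc-2, ifd-1 and ifd-2 at day 10, against 12%, 11.1% and 11.8% in L4. The gene ifd-1 gave 1.35% to 1.82% at day 10 and 5.71% to 6.33% in L4. The share of ifb-2 was 31.8% to 37.9% at day 10 and 43.9% to 49.0% in L4. The share of ifd-2 ran the other way, at 27%, 36.9% and 44.4% at day 10, against 13.1%, 10.4% and 9.09% in L4. These 4 shares did not overlap between the ages, whereas that of ifc-2 did, at 20.4% to 32.7% at day 10 and 24.4% to 24.9% in L4. The shares of a set depend on one another, since a lower share of some genes raises that of others. How often shares in other sets of genes lack overlap was not computed, so the count has no background and is a description. The summed level of the set was 35.3, 38.4 and 38.2 FPKM at day 10, against 252.0, 224.7 and 215.8 FPKM in L4.

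**Figure D3:**
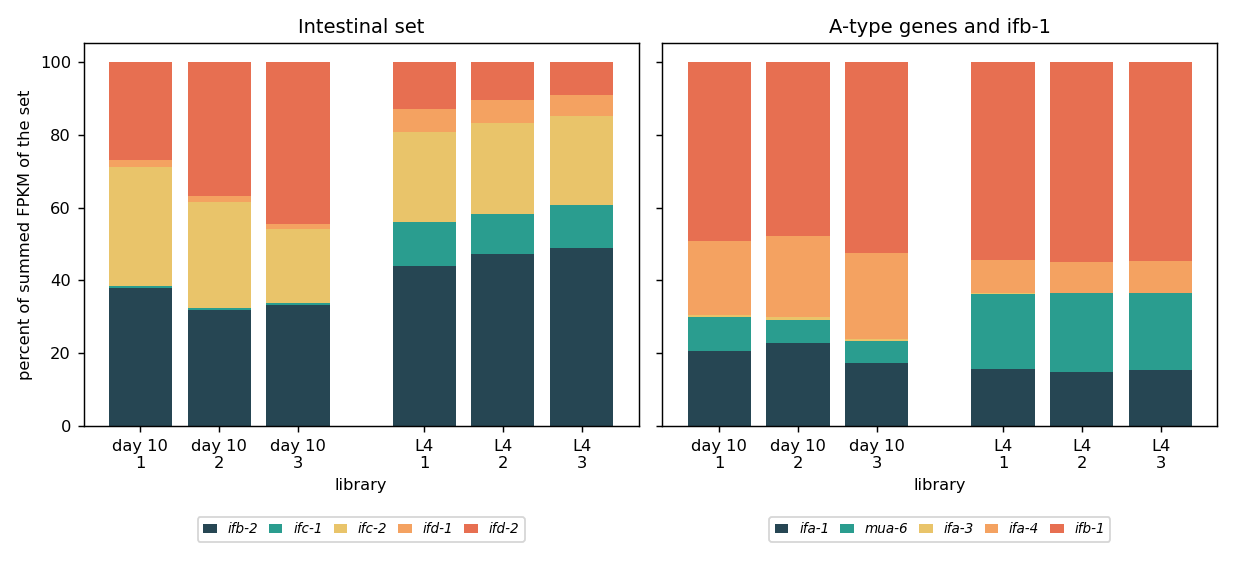
Share of each gene in the summed FPKM of its set in each library, for the intestinal set (left panel) and for the A-type genes with ifb-1 (right panel), day 10 libraries left of L4 libraries. The ifd-2 segment covers 27% to 44.4% of the intestinal set at day 10 and 9.09% to 13.1% in L4, and ifc-1 is barely visible at day 10.

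In the set of A-type genes with ifb-1, ifb-1 held 47.9% to 52.5% at day 10 and 54.3% to 55.1% in L4. The share of mua-6 was 5.98% to 9.34% at day 10 and 20.6% to 21.8% in L4. That of ifa-4 was 20.3% to 23.7% at day 10 and 8.34% to 9.2% in L4, and that of ifa-1 was 17.3% to 22.8% at day 10 and 14.7% to 15.7% in L4. The summed A-type level per ifb-1 level was 1.03, 1.09 and 0.905 at day 10, against 0.84, 0.814 and 0.827 in L4. The ages did not overlap, and the summed A-type level was below that of ifb-1 in all 3 L4 libraries and in 1 of the 3 day 10 libraries. The intestinal set had 0.697 to 0.817 times the level of the A-type and ifb-1 set at day 10 and 0.791 to 0.928 times in L4, with overlap between the ages.

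Pairs of related genes were compared as the ratio of their FPKM within each library. The ratio of ifc-1 to ifc-2 was 0.0181, 0.0169 and 0.023 at day 10, against 0.482, 0.444 and 0.485 in L4. The ratio of ifd-1 to ifd-2 was 0.0676, 0.0434 and 0.0304 at day 10, against 0.48, 0.607 and 0.627 in L4. Both of these ratios were lower in every day 10 library than in any L4 library. The ratio of ifb-1 to ifb-2 was 1.86, 1.84 and 1.94 at day 10, against 1.34, 1.37 and 1.41 in L4, and that of ifo-1 to ifb-2 was 0.478, 0.536 and 0.495 at day 10, against 0.0985, 0.0833 and 0.0853 in L4. Among 7 such ratios, which were chosen with the values in view, the ages did not overlap for any. The remaining ratios were ifa-1 to mua-6, ifa-4 to ifa-1 and ifd-2 to ifb-2, each higher at day 10. The share of other gene pairs without overlap was not computed, so the count has no background and is given as a description. The exact permutation test over libraries, 2-sided, gave p = 0.1 for each, and 0.1 after Benjamini-Hochberg adjustment over the 7. This is the smallest p that 3 libraries against 3 allow. Any ratio without overlap gives it, so the test adds nothing to the lack of overlap.

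The fall of the intestinal filament genes was set beside other genes of the gut. Of 11 intestine markers, 10 fell and none rose (list median -2.36 on the log2 scale); spp-5, a saposin-like gene, did not pass the test (log2 fold change -0.85), but was called lower under 6 alternatives, among them without day 10 replicate 3 (-0.50). The protease asp-1 and the protease cpr-6, the most abundant of them, had log2 fold changes of -2.24 and -2.36. The summed marker level was 1545, 1424 and 830.2 CPM at day 10, against 5849, 6093 and 5880 CPM in L4, so day 10 replicate 3 was the lowest library. The summed level of the 5 intestinal filament genes was 78.2, 81.8 and 71.2 CPM at day 10, against 526.3, 485.6 and 455.5 CPM in L4. Relative to elt-2, the main intestinal GATA factor, the summed FPKM of the filament genes was 7.29, 7.03 and 9.32 at day 10, against 24.9, 30.1 and 24.7 in L4. Relative to ges-1, a gut esterase, it was 3.76, 6.04 and 14.3 at day 10, against 6.78, 6.13 and 5.81 in L4, so the ages overlapped. The ratio thus depended on the gut gene used, and ges-1 itself varied widely at day 10, with 16.7, 11.3 and 4.43 CPM, against 64.3, 65.4 and 64.8 CPM in L4.

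Genes of the apical gut surface and of filament regulation moved both ways. Of 12, 8 fell and 2 rose. Their median log2 fold change was -0.63, beside -0.16 for all genes. The brush border actin act-5, which fills the microvilli above the endotube, stood at 68.1, 78.9 and 101.8 FPKM at day 10, against 632.9, 611.6 and 617.0 FPKM in L4 (log2 fold change -2.92). The membrane linker erm-1 and the junction protein gene ajm-1 fell, with log2 fold changes of -0.54 and -1.40. The junction scaffold dlg-1 had a log2 fold change of -0.33 (edgeR's adjusted p = 0.027), a call that was lost with DESeq2's size factors (-0.17, adjusted p = 0.18), after removal of day 10 replicate 2 (adjusted p = 0.076) or of any 1 of the L4 replicates (0.052 to 0.064). The genes that rose were plst-1, an actin-bundling plastin, and mtm-6, a myotubularin lipid phosphatase, with log2 fold changes of 1.51 and 1.48. Whether the transcripts of these 12 genes came from the gut alone was not tested, so the rises are not read as rises in the gut.

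Among the genes of that list picked after their values were seen, the peptide transporter pept-1 fell by 4.30 on the log2 scale. The filament regulator bbln-1, a small coiled-coil protein of the intestinal filament sheath, fell by 1.43 on the log2 scale. The genes sma-5 and let-413 did not pass the test, although sma-5 was called lower with upper-quartile factors (-0.94). SMA-5 is a kinase that shapes the intestinal filament sheath, and sma-5 stood at 7.85, 12.9 and 16.6 FPKM at day 10, against 21, 15.8 and 15.1 FPKM in L4. Its libraries had the same order as those of ifd-2 at both ages, with replicate 1 lowest at day 10 and highest in L4. These are 3 libraries an age, and the likeness is given as a description. The polarity gene let-413 had a log2 fold change of 0.05, which became 0.21 and passed as higher under DESeq2's size factors (adjusted p = 0.014), but became -0.40 and passed as lower under upper-quartile scaling (adjusted p = 0.00031).

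The anchors of the epidermal filaments fell with the filament genes. All 7 listed genes of the fibrous organelles and their muscle-side matrix fell, with a median log2 fold change of -3.16. The spectraplakin vab-10, which links filaments to the attachment, averaged 236.3 ± 26.5 CPM at day 10 and 579.4 ± 40.4 CPM in L4 (SD, n = 3 each), a log2 fold change of -1.29. The transmembrane attachment genes mua-3 and let-805 had log2 fold changes of -5.16 and -3.16. The muscle basement membrane perlecan unc-52 had one of -5.16. The list's summed level was 366.1 to 439.2 CPM at day 10 and 2561 to 2884 CPM in L4.

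**Figure D4:**
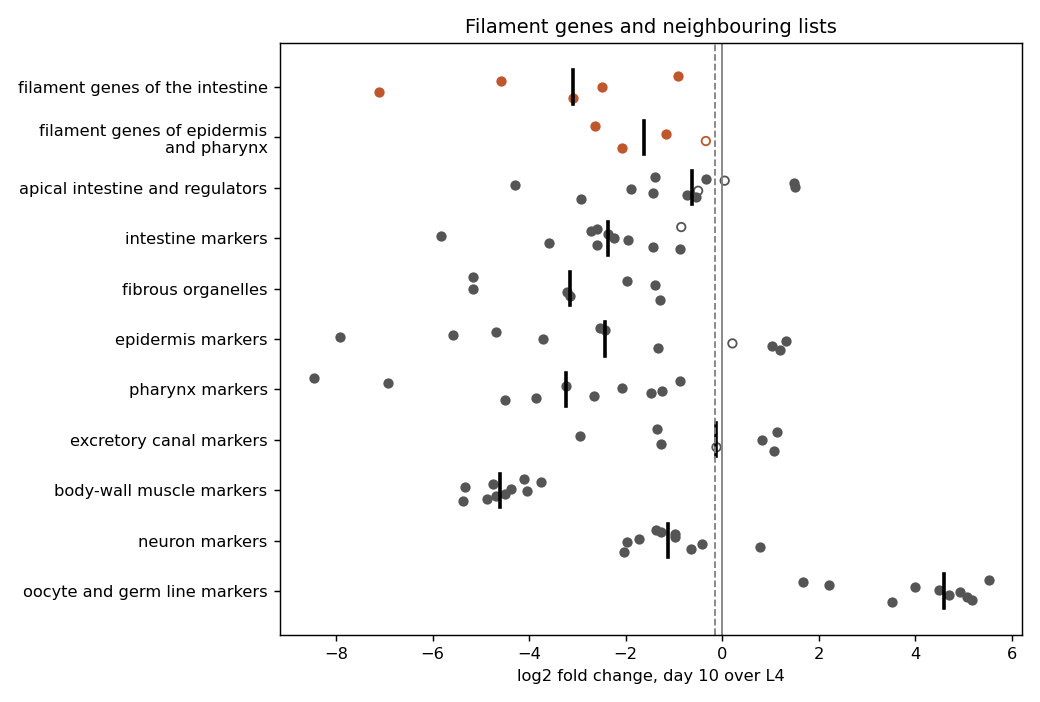
Log2 fold changes of day 10 over L4 for the filament genes of the intestine and of epidermis and pharynx (orange) and for genes of neighbouring lists (grey). Each point is a tested gene (filled where it passed edgeR's test; phat-1, with 2 counts at day 10, is not drawn), black bars are list medians over all tested genes, and the dashed line is the median of all genes. The medians are -3.09 for the intestinal group and -1.62 for ifa-1, ifa-3, ifa-4 and ifb-1, or -2.08 with mua-6 added, and the group of epidermis and pharynx includes ifa-4, which is also a gene of the excretory canal.

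Markers of the other tissues that hold these filaments were examined in the same fit. Of 11 epidermis markers, 7 fell and 3 rose (list median -2.42 on the log2 scale). The moulting genes mlt-11 and mlt-10, the most abundant, fell, with log2 fold changes of -4.68 and -5.58, while the epidermal transcription factor genes lin-26, elt-1 and nhr-25 rose, with log2 fold changes of 1.04, 1.20 and 1.31. The transcription factor gene nhr-23 did not pass, with 0.21; it was called higher under 6 alternatives (0.22 to 0.38) and lower with upper-quartile factors (-0.24). The summed epidermis markers were at 384.8 to 418.9 CPM at day 10 and 2196 to 2572 CPM in L4. Since the list holds moulting genes and L4 ends with a moult, its median and sum are no measure of epidermis alone. The part of the moult in them was not tested. All 11 tested pharynx markers of 12 fell, with a median of -3.23, with -4.50 for the pharyngeal myosin myo-1 and -3.86 for myo-2. Their sum was 66.3 to 71.0 CPM at day 10 and 750.9 to 827.1 CPM in L4.

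Of 7 excretory canal markers, 3 rose, 3 fell and the regulator exc-5 did not pass (log2 fold change -0.12, called lower at -0.58 with upper-quartile factors), with a median of -0.12 that was 0.04 with DESeq2's size factors. The proton pump subunit vha-5 fell by 2.95 on the log2 scale, while the chloride channel genes exc-4 and clh-3 and the aquaporin aqp-8 rose, with log2 fold changes of 1.07, 1.13 and 0.82; that of aqp-8 missed the threshold with upper-quartile factors. Their sum was 205.6 to 223.1 CPM at day 10 and 328.4 to 340.3 CPM in L4. By comparison ifa-4, ifb-1 and ifc-2, which are used in that cell and also elsewhere, all fell. Whether the transcripts of the listed markers came from the canal alone was not tested.

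Other cell types changed too. All 10 body-wall muscle markers fell, with a list median of -4.60 on the log2 scale and a sum of 609.9 to 700.9 CPM at day 10 and 15926 to 17195 CPM in L4. The most abundant were unc-54 and unc-15, which encode a myosin and paramyosin. Of 10 neuron markers, 9 fell, among them egl-3, a neuropeptide-processing protease gene (log2 fold change -0.97), and snb-1, synaptobrevin, rose. With DESeq2's size factors 8 fell, since unc-64 (-0.42 in the main fit) then missed the threshold, at -0.26. The list had a median of -1.12 and a sum of 490.5 to 533.9 CPM at day 10 and 648.6 to 679.1 CPM in L4. All 10 oocyte and germ line markers rose, cpg-2 and cbd-1 being the most abundant; the list median was 4.59. Of 11 genes listed for early embryos, 7 passed the filter on low counts. The sum of the 11 was 155.7 to 169.5 CPM at day 10 and 15.5 to 18.7 CPM in L4. Most of it came from pal-1, at 118.0 ± 12 CPM at day 10 and 15.8 ± 1.67 CPM in L4 (SD, n = 3 each). Since pal-1 was present in L4 larvae too, the sum is no measure of embryos alone. The T-box gene tbx-38 was next at day 10, at 15.3 ± 3.17 CPM (SD, n = 3), and had 0 counts in L4. Day 10 animals thus held more transcripts known from oocytes and embryos, and the part of these in the filament values was not tested.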

How the data were processed

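Per the submitters' processing notes, the workflow named CASAVA 1.8, HISAT2 and HTSeq; other versions, the genome build, annotation, strand and settings are not given in the sources used here. Per the labels, RNA was extracted with Trizol from synchronized animals washed at least 3 times, and 1 µg of total RNA entered each Illumina TruSeq library. The authors deposited raw read counts per gene and FPKM; the deposited FPKM equal the counts divided by 1 length per gene and by the total of the library (relative deviation at most 8.3e-08). The authors also deposited a comparison with mean scaled counts (a signal), p-values and adjusted p-values, whose test was not given; its adjusted p-values are quoted.

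Day 10 was tested against L4 on the deposited counts with edgeR 4.0.16 (R 4.3.3; TMM, default low-count filter, robust quasi-likelihood fit) over all genes, with Benjamini-Hochberg adjustment at 0.05. CPM use TMM-scaled libraries; SEs are the larger of 2 errors, the within-age spread of log2 CPM and the counting error of the pooled counts; a spread with a pseudocount of 0.5 CPM, as first planned, understated the error of genes near that level. The steps were run on simulated data in which few genes differed. Most genes differ here, so that run does not test the scaling or the error rate for these data. No 2 replicates matched within sampling noise. No pairing by replicate number was detected, with correlations of same-numbered deviations of -0.003 to 0.08. Weak correlations cannot exclude a shared batch or pairing, on which the labels are silent. Gene symbols and WBcel235 coordinates come from Ensembl's annotation; of 118 listed symbols, 4 had no row. The genes and lists were chosen with earlier results of these data known. All 10 genes are named, then mua-6, ifp-1 and lmn-1, the 4 most abundant and any risen gene of the apical gut and fibrous organelle lists, and the 2 most abundant of each marker list; others named were chosen after their values were seen. Sequences were not analysed here. Alternatives were other scalings, filters and tests (DESeq2 1.42.0; limma 3.58.1 on voom weights or on log2 FPKM), leaving out the 50 top genes, a block for the replicate number, and omission of each library.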

Additional observations from a re-analysis of the deposited data

How the results depend on the processing

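The 10 filament genes kept their direction and their side of the threshold under the alternatives that could give a value, 18 for each gene (17 for ifa-3, which failed the filter of at least 1 CPM in 3 libraries), and 9 were called lower and 0 higher in each fit. Of 15956 genes tested, 7174 were called lower in the main fit. The number was 8408 under upper-quartile scaling and 6770 under DESeq2's size factors. With the replicate number as a block, 9 were lower and 0 higher, and 13397 of all genes were called, against 13634 without it. No pairing by these numbers was detected. The block changed the call of no filament gene, while spp-5 was then called lower (edgeR's adjusted p = 0.045). The lowest and highest log2 fold changes over the alternatives were -7.56 and -4.54 for ifc-1, -5.03 and -3.24 for ifd-1, -1.37 and -0.71 for ifd-2 and -1.04 and -0.42 for ifo-1. The smallest sizes for ifc-1 and ifd-1 came with log2(FPKM + 1), where the pseudocount exceeds their day 10 level. The highest adjusted p among the 9 genes was 0.036, for ifd-2. The median of all genes was 0.00 under DESeq2's size factors but -0.62 under upper-quartile scaling, and ifo-1, the smallest fall, kept its call under both. With CPM in place of FPKM the A-type to ifb-1 ratio in L4 was 0.757 in place of 0.827, since CPM are not divided by length. With the annotation's exon lengths, chosen after seeing the data, the share of ifc-1 in L4 was 13.1% and that of ifb-2 50.1%. At 12 to 20 counts a library, depth limits what can be said of ifa-3.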
